A study of Mus musculus with 9 samples.

Results

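Th3 is 1 of 16 cell labels that the authors gave to single cells of the adult mouse thyroid, and it holds 901 of the 10186 labelled cells. Its cells were taken by that label in the deposited annotation. The cells came from male C57BL/6 mice, aged 10 to 14 weeks per the labels' protocol and 10 to 12 weeks per the series' design text. Every mouse received a single intraperitoneal injection and the labels give 7 days for all samples. The control group RW received an isotype antibody against ragweed at 40 mg/kg. The group aJ1aJ2 received blocking antibodies against the Notch ligands Jag1 and Jag2 at 20 mg/kg each, and the group aN1aN2 received blocking antibodies against the receptors Notch1 at 5 mg/kg and Notch2 at 10 mg/kg. The antibodies were given to the whole animal, so no cell type was singled out by the treatment. Each group has 3 samples, and each sample is 1 pool of thyroids from 6 mice, digested with Liberase for 30 min at 42 °C and captured with the 10x Genomics 3′ v2 kit. The comparisons below ask what the Th3 cells are, and how they differ between the 3 antibody groups.

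The thyroid is built of follicles lined by thyrocytes, which make thyroglobulin (Tg), pass it through the endoplasmic reticulum (ER) with the help of chaperones, and store it in the follicle lumen as the scaffold of thyroid hormone. C cells lie beside the follicles and secrete calcitonin, encoded by Calca. Strap muscle, trachea and parathyroid adjoin the gland and can enter a dissected sample. Notch signalling passes between neighbouring cells, from ligands such as Jag1 to receptors such as Notch1, and its targets include transcription factors of the Hes and Hey families.

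The 9 samples held 43 to 193 Th3 cells each, with summed Th3 depths of 62876 to 340818 unique molecular identifiers (UMIs), out of 3013324 to 11880793 UMIs over all labels. Of all barcodes, 15 occurred in more than 1 library, and 2 Th3 cells carried such a barcode. All 3 aN1aN2 samples, and no others, carry sample numbers of a separate internal series, so receptor blockade and that series cannot be told apart. RW 1, RW 2, aJ1aJ2 3 and aJ1aJ2 4 share a second such series, and RW 3 and aJ1aJ2 1 share another. The pools are the replicates, and p-values measure only the spread between these pools.

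The Th3 cells were shallow. The median Th3 cell held 987 UMIs and 493 genes, against 12553 UMIs in Th1, the thyrocyte label. By sample, the Th3 median was 1425, 900 and 808 UMIs in RW, 920, 898 and 1104 in aJ1aJ2 and 1021, 802 and 914 in aN1aN2. RW 1 was the deepest, and the groups overlapped. The shallowest Th1 cell had 1197 UMIs, 458 Th3 cells (50.8%) lay under 1000, and only 50 Th3 cells (5.55%) lay above the lowest decile of Th1 depth. The median mitochondrial share was 11.6% of UMIs in Th3 and 8.99% in Th1. The Th3 mitochondrial share by sample was 8.78, 15.3 and 7.48% in RW, 12.5, 15.1 and 16.6% in aJ1aJ2 and 9.93, 10.4 and 9.23% in aN1aN2. RW overlapped each other group, and all aJ1aJ2 samples lay above all aN1aN2 samples.

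At equal depth Th3 cells still held fewer genes. After every cell was thinned to 500 UMIs, the median number of genes per sample was 273 to 328 in Th3, 333 to 352 in Th1 and 335 to 391 in EC4, a label of similar depth (median 1046 UMIs) whose endothelial gene list summed to 19466 CPM (counts-per-million, of the UMIs of the summed cells), against 164 CPM in Th3. Levels in Th3 and Th1 were not tested against each other here or below, because the labels were drawn from the same counts.

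The 3 genes that mark the label, Tg, Calca and Mia, did not mark the same cells. Tg (chromosome 15, positions 66670753 to 66850721, plus strand, GRCm38) was at 83135, 96071 and 59778 CPM in RW, 55402, 121067 and 98543 in aJ1aJ2 and 112742, 25756 and 94631 in aN1aN2. These levels are UMIs of the summed Th3 cells of a sample, scaled to CPM. The lowest value was in aN1aN2 2 and the highest in aJ1aJ2 3, and the groups overlapped. Summed over samples, Tg was at 79768 CPM in Th3 and 92030.1 CPM in Th1. It was still at 2261 CPM in EC4 and 495 in the fibroblast label F, cells not known to make thyroglobulin. The Tg gene overlaps Sla on the opposite strand, and how the authors' counting treated strand is not given in the sources used here.

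Calca (chromosome 7, positions 114631478 to 114636357, minus strand) was at 36389, 65751 and 56030.4 CPM in RW, 18754, 2506 and 14019 in aJ1aJ2 and 4146, 10422 and 636 in aN1aN2. Every RW sample lay above every sample of both blockade groups. The same order within each of the 2 internal series that hold both RW and aJ1aJ2 follows from this and is no further check. Mia (chromosome 7, positions 27179742 to 27181157, minus strand), which encodes a small secreted protein known from cartilage and melanoma, had 244 UMIs in 50 Th3 cells. RW 1, RW 2 and RW 3 held 108, 10 and 120 of these UMIs, the aJ1aJ2 samples 2, 0 and 3 and the aN1aN2 samples 1, 0 and 0. Mia overlaps the gene model Gm21983 on the same strand. Of the 10 listed cartilage genes, Col2a1, Acan and Comp were among 6 with no UMI in Th3. Sox9, a cartilage factor that thyrocytes also express, was lower in Th3 than in Th1 in all 9 samples (mean 127 against 328 CPM).

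The cells were described by what their own UMIs held, with limits chosen after the values had been seen. A cell was called Tg-rich with at least 2% of UMIs from Tg and under 5% from each of the C cell list (16 genes) and the skeletal muscle list (20 genes). Tg-rich cells numbered 661 (73.4% of Th3 cells) and held 60.5% of Th3 UMIs and 98.0% of Th3 Tg. Cells with 0.5% to 2% Tg, called Tg-middle, numbered 82, and cells under 0.5%, called Tg-low, numbered 112 (12.4%). Another 30 cells (3.33%) held at least 5% of C cell list UMIs, and 16 (1.78%) at least 5% of muscle list UMIs. No cell passed both list limits, and Tg reached 2% in 6 of the C cell list cells and 1 of the muscle list cells. The limits are ranges and not types: 5 cells lay between 2.5% and 10% for each list, and 115 cells between 1% and 4% Tg.

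**Figure D1:**
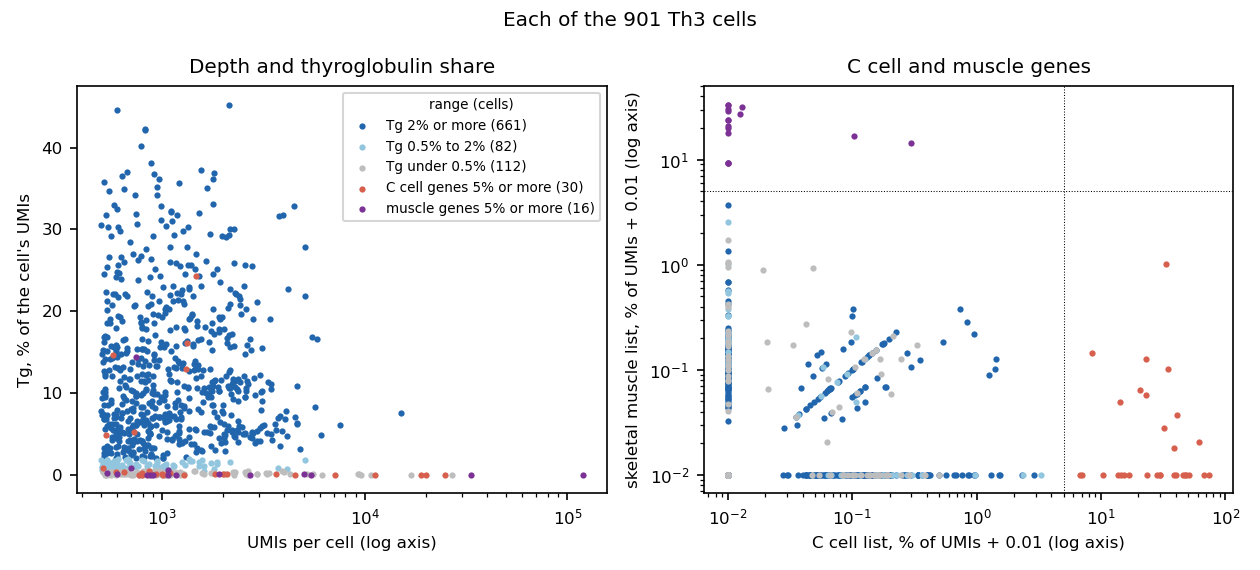
Each point is 1 of the 901 Th3 cells, coloured by range. The left panel plots the Tg share of UMIs in percent (linear axis) against the cell's UMIs (log axis). The right panel plots the skeletal muscle list share against the C cell list share in percent. Both of its axes are log axes with a small constant added, and dotted lines mark the 5% limits. Most cells sit near 1000 UMIs with a high Tg share, the 30 C cell list cells and 16 muscle list cells form separate arms, and no cell passes both limits.

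Few cells carried the C cell and muscle lists. The 30 C cell list cells held 99.1% of Th3 Calca with 7.55% of Th3 UMIs, and the 16 muscle list cells held 98.1% of muscle list UMIs with 11.6% of UMIs. The shares of Th3 UMIs from Tg-rich cells were 86.4, 53.7 and 47.1% in RW, 32.1, 83.2 and 69.5% in aJ1aJ2 and 70.0, 20.4 and 63.4% in aN1aN2. The corresponding shares of cells were 87.0, 72.3 and 65.9%, 61.9, 76.6 and 70.7% and 73.6, 66.7 and 65.1%, with exact 95% binomial (Clopper-Pearson) intervals as wide as 49.1% to 79.0% in aN1aN2 3. The groups overlapped in both shares, and aJ1aJ2 1 and aN1aN2 2 had the lowest shares of UMIs. Intervals here and below cover counting error only.

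**Figure D2:**
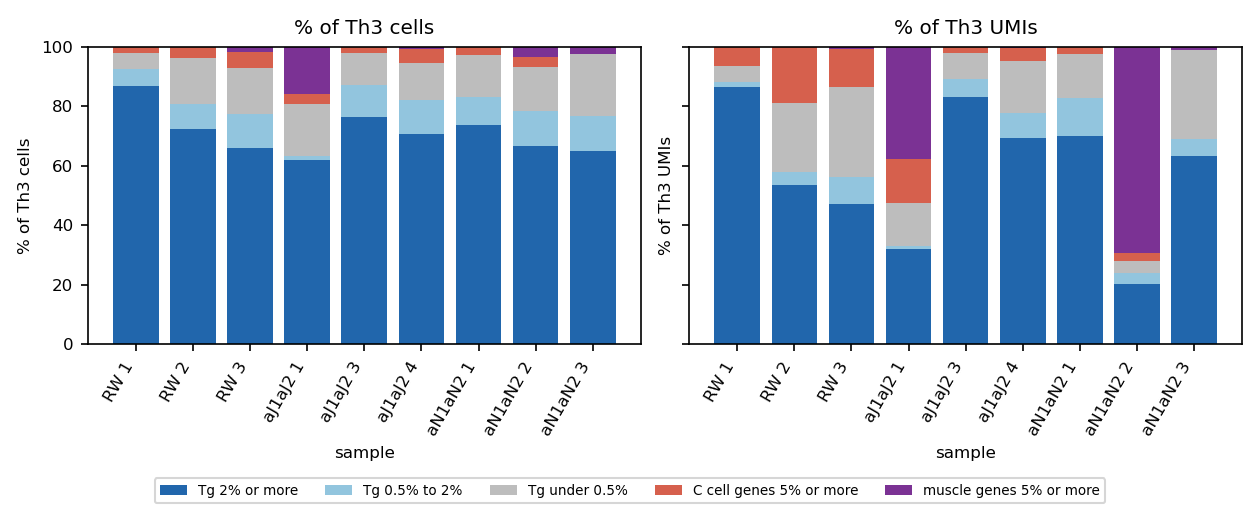
Stacked bars give, for each of the 9 samples, the percent of Th3 cells (left) and of Th3 UMIs (right) in each range. Tg-rich cells are 61.9% to 87.0% of cells in every sample, but muscle list cells supply 37.6% of UMIs in aJ1aJ2 1 and 69.3% in aN1aN2 2.

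The C cell list cells were rich in calcitonin and granin transcripts, which are on the list that chose them. Summed over the 30 cells, Calca was at 361155 CPM, Scg2, a granin of secretory granules, at 7076 CPM and chromogranin Chga at 569 CPM. Tg in the same cells was at 8169.9 CPM, under the 129148 CPM of Tg-rich cells, which were chosen by their Tg share. The transcription factor Nkx2-1, shared by C cells and thyrocytes, was at 114 CPM, and the thyrocyte factor Pax8 at 8.75 CPM. These cells had a median of 1081 UMIs, although 5 of them exceeded 5000. Th3 held 60.2% of the Calca UMIs of the whole table, and Th1 held 37.0%. Cells with at least 5% of UMIs from Calca numbered 30 in Th3, with a median of 1081 UMIs, and 4 in Th1, with a median of 29336 UMIs.

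The 16 muscle list cells held at least 5% and at most 33.5% of their UMIs from the skeletal muscle list, which chose them. The contractile genes Acta1 and Tnnt3 were at 47505 and 39410.5 CPM, the creatine kinase Ckm at 31719 CPM and the fast myosin Myh4 at 2460.0 CPM. The nuclear RNA Malat1 was at 17.0 CPM in them, against 16176 CPM in Tg-low cells. Of the 16, 10 came from aJ1aJ2 1, 15.9% of that sample's Th3 cells. A single cell of 119487 UMIs supplied 68.6% of the Th3 UMIs of aN1aN2 2, with 5380 UMIs of Tnnt3 and 5308 of Acta1. The 16 cells held 176425 UMIs together, with a median of 1070, so the levels summed over them mostly describe this single cell. The summed Th3 level of Acta1 therefore stood at 32.3, 96.3 and 249 CPM in RW, 20843, 54.1 and 380.4 in aJ1aJ2 and 33.1, 30656 and 63.6 in aN1aN2. It was above 1000 CPM in aJ1aJ2 1 and aN1aN2 2 only. The summed muscle list ran from 440.1 to 1566 CPM in RW, 388 to 106662 in aJ1aJ2 and 198 to 188407 in aN1aN2 over all Th3 cells, and from 255 to 371 CPM in RW, 133 to 707 in aJ1aJ2 and 150.5 to 282 in aN1aN2 over Tg-rich cells, with all 20 genes present in Th3.

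The cell type lists each reached 1% of UMIs in few of the 112 Tg-low cells. Their median mitochondrial share was 5.64%, under the 13.8% of Tg-rich cells. At least 1% of UMIs came from the fibroblast list in 8 of the 112 cells, from the adipocyte list in 3, from the muscle list in 3, and from the airway, parathyroid and smooth muscle lists in 2 each. The macrophage, erythroid, cartilage, neutrophil and Schwann cell lists reached that level in 1 cell each, and the endothelial and lymphocyte lists in 0 of 112. A cell of 26946 UMIs in RW 3 was led by the airway secretoglobin Scgb3a1 (3719 UMIs) and lactoferrin Ltf (3565 UMIs). It raised the airway list of Th3 to 20353 CPM in RW 3. Deep cells were scarce but heavy: 27 Th3 cells exceeded 5000 UMIs, of which 9 were Tg-low, 8 Tg-rich, 5 C cell list, 4 muscle list and a single one Tg-middle.

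Mia UMIs lay in few cells, which differed between samples. In RW 3, a single Tg-low cell of 9401 UMIs held 115 of the 120 Mia UMIs and 191 UMIs of 1500015O10Rik. In RW 2, 8 of 10 lay in C cell list cells. In RW 1 nearly all lay in a set of Tg-rich cells with Grp, the gene of gastrin-releasing peptide. Cells with at least 5 UMIs and at least 0.5% of UMIs of Grp were counted, again with limits set after the values had been seen, and are called Grp-rich. They numbered 46 in Th3, of which RW 1 held 38 (19.7% of its Th3 cells). RW 2 and RW 3 held 1 and 2, the aJ1aJ2 samples 2, 1 and 2, and the aN1aN2 samples none of their 175 Th3 cells. The 38 cells of RW 1 held 107 of its 108 Mia UMIs, 475 of its 571 UMIs of 1500015O10Rik and 43 of its 44 UMIs of Dapl1. All 38 were Tg-rich. They were deeper than the other 130 Tg-rich cells of RW 1 (median 2736 against 1212 UMIs), with less mitochondrial RNA (4.70% against 9.50%) and a lower Tg share (5.24% against 10.6%). The limit of at least 5 Grp UMIs itself favours deeper cells. Mia was at 1011 CPM in them and 5.30 in the others, and the tight junction gene Cldn10 at 264 and 10.6 CPM. Fxyd4, a regulator of the sodium pump, had no UMI in the 38 and 80 UMIs in the others. In Th1, 35 of 1169 cells met the same limits, at 0% to 5.70% of the Th1 cells of a sample, and held 1057 of 1649 Mia UMIs.

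Th3 cells held RNA of other thyrocyte genes besides Tg. With each cell thinned to 500 UMIs, the iodotyrosine deiodinase Iyd was seen in 33.5% of Th3 cells (interval 30.4% to 36.7%), 36.9% of Th1 cells and 0.686% of cells of the endothelial label EC1 (56.3%, 94.1% and 6.43% unthinned). The deiodinase Dio1 was seen in 18.3% of thinned Th3 and 21.1% of thinned Th1 cells. The iodide importer Slc5a5 stood at 4.77% and 5.47%. Among the transcription factors of thyroid identity, Foxe1 was seen in 15.6% of Th3 and 21.2% of Th1 cells, Pax8 in 10.2% and 13.3%, and Nkx2-1 in 9.32% and 14.4%. Each share was lower in Th3, but the Th3 and Th1 intervals overlapped for Iyd, Dio1, Slc5a5 and Pax8. They did not overlap for Foxe1 and Nkx2-1. In thinned Tg-rich cells Iyd (38.9%), Dio1 (21.5%) and Slc5a5 (5.60%) were not lower than in Th1. Foxe1 (16.5%), Pax8 (9.98%) and Nkx2-1 (8.77%) were still lower there. The epithelial adhesion gene Epcam was seen in 24.3% and 27.6%, and Mt1, a metallothionein, in 83.8% and 90.8%, against 7.05% in EC1.

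UMIs of thyrocyte, C cell and red cell genes were also seen in labels that should lack them. The median depths before thinning were 3994 UMIs in EC1, 1046 in EC4 and 5632 in F. Tg itself was seen in 93.0% of thinned Th3 cells, 45.0% of EC4, 30.6% of EC1 and 27.1% of F cells (96.9%, 68.6%, 83.7% and 84.6% unthinned). Calca was seen in 8.17% of thinned Tg-rich cells (interval 6.20% to 10.5%), and 5.26% of EC4 cells (interval 3.99% to 6.79%), and the interval in Th1 was 5.16% to 8.07%. The 3 intervals overlapped. Acta1 was seen in 1.82% of Tg-rich cells and in 0 of 1169 thinned Th1 cells (upper interval bound 0.315%). The globin Hbb-bs was seen in 24.2% of Th3, 12.6% of Th1 and 29.8% of EC4 cells.

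Relative to Tg, other thyrocyte genes were scarcer in Tg-rich cells than in Th1. Tg-rich cells were chosen by their Tg share, which enters these ratios. Per 1000 Tg UMIs, the median over the 9 samples was 7.41 Iyd UMIs in Tg-rich cells (range 2.73 to 14.0) and 11.6 in Th1 (range 4.03 to 14.4). The median ratio was 2.38 and 5.55 for Foxe1 and 2.38 and 6.34 for the anion transporter Slc26a7. The ranges overlapped for these 3 genes, but not for Pax8 (0.265 to 2.80 in Tg-rich cells against 3.07 to 4.11 in Th1). In EC4 Iyd stood at 10.1 per 1000 Tg UMIs, from 29 UMIs.

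Against Th1 of the same sample, more genes were lower than higher in Th3. Of 1603 genes with at least 100 CPM on average in either label, 27 were higher and 287 lower in all 9 samples. Over 9090 genes with at least 10 CPM on average in either label, the median difference of log2(CPM + 1) was -0.78 in all Th3 cells and -1.27 in Tg-rich cells, so that most genes lay lower in Th3 on this scale. Th3 sums were shallower than Th1 sums (62876 to 340818 against 872716 to 5233988 UMIs). A sum without a UMI of a gene pulls such a mean difference down, so the values are not exact. Among the 15 highest mean differences were those of the muscle genes Tnnc2 (6.29), Acta1 (6.29) and Mylpf (4.60), of the secreted peroxidase Gpx3 (36.1 to 1972 CPM across the 9 samples' Th3 cells against 8.70 to 104 in their Th1 cells), of the ribosomal RNA model AY036118 (2.16) and of Nnat (4.33), Chga (2.57) and Pth (2.13), the gene of parathyroid hormone. Among the 15 lowest were the matricellular gene Ccn4 (-2.94), the adhesion receptor Adgrf5 (-2.64), Malat1 (-2.02) and the angiogenic factor Vegfa (-1.97).

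Restricting Th3 to Tg-rich cells removed the muscle genes, Gpx3, Nnat, Chga and Pth from the list of highest differences. Of the higher genes named above, only AY036118 stayed on it. Of 1521 genes, 19 were higher and 206 lower than in Th1 in all 9 samples. The highest were Mir6236 (2.82), AY036118 (2.70) and Gm42418 (2.08), 3 models in which ribosomal RNA reads are known to gather, followed by the mitochondrial leucyl-tRNA synthetase Lars2 (1.55) and the mitochondrial ribosomal RNAs mt-Rnr1 (0.89) and mt-Rnr2 (0.85). AY036118 and Gm42418 overlap on opposite strands of chromosome 17, so reads may be split between them. Also among the 15 highest were the lysosomal proteases Ctsd (0.56) and Ctsl (0.36), the saposin precursor Psap (0.47) and Tg, which chose the cells (0.55, SD 0.26 over 9 samples, 140988 against 95599.8 CPM). Among the lowest were the imprinted long RNA Kcnq1ot1 (-4.30, at 0 CPM in 5 of the 9 Tg-rich sums), Malat1 (-3.09), the splicing-related Pnisr (-3.04), Tnrc6b (-2.93), a gene of microRNA silencing, and the paraspeckle RNA Neat1 (-2.49). Tg-rich sums were also at 0 CPM for Pnisr in aJ1aJ2 1 and aN1aN2 3, Tnrc6b in RW 2 and aN1aN2 2, and Neat1 in RW 2. Mean CPM in Tg-rich cells and Th1 was 42.7 and 166.5 for Pnisr, 29.1 and 117.3 for Tnrc6b, and 238.7 and 636.7 for Neat1.

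Malat1, which stays in the nucleus, showed the gap in single cells as well. In Tg-rich cells it was at 6653, 756 and 2459 CPM in RW, 776, 1928 and 2349.8 in aJ1aJ2 and 3480.4, 959 and 451 in aN1aN2, and it lay between 5075 and 22732 CPM in Th1. After thinning to 500 UMIs it was seen in 33.7% of Tg-rich cells, 46.4% of Tg-low cells, 88.4% of Th1 and 88.0% of EC1 cells (44.3%, 51.8%, 99.0% and 98.3% unthinned). In Th3 Gm42418 was at 19711, 26357 and 26205 CPM in RW, 20893, 32639.6 and 29032 in aJ1aJ2 and 5602, 1741 and 5439 in aN1aN2, and it lay between 2173 and 7819 CPM in Th1. Every aN1aN2 sample lay under every other sample for Gm42418 in Th3. Tg-rich cells were shallower and lower in Malat1 than Th1 in all 9 samples, and had a higher median mitochondrial share in 8 of 9, RW 1 being the exception (8.43% against 9.32%). The part of depth, Malat1 level and mitochondrial share in the other differences from Th1 was not tested.

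**Figure D3:**
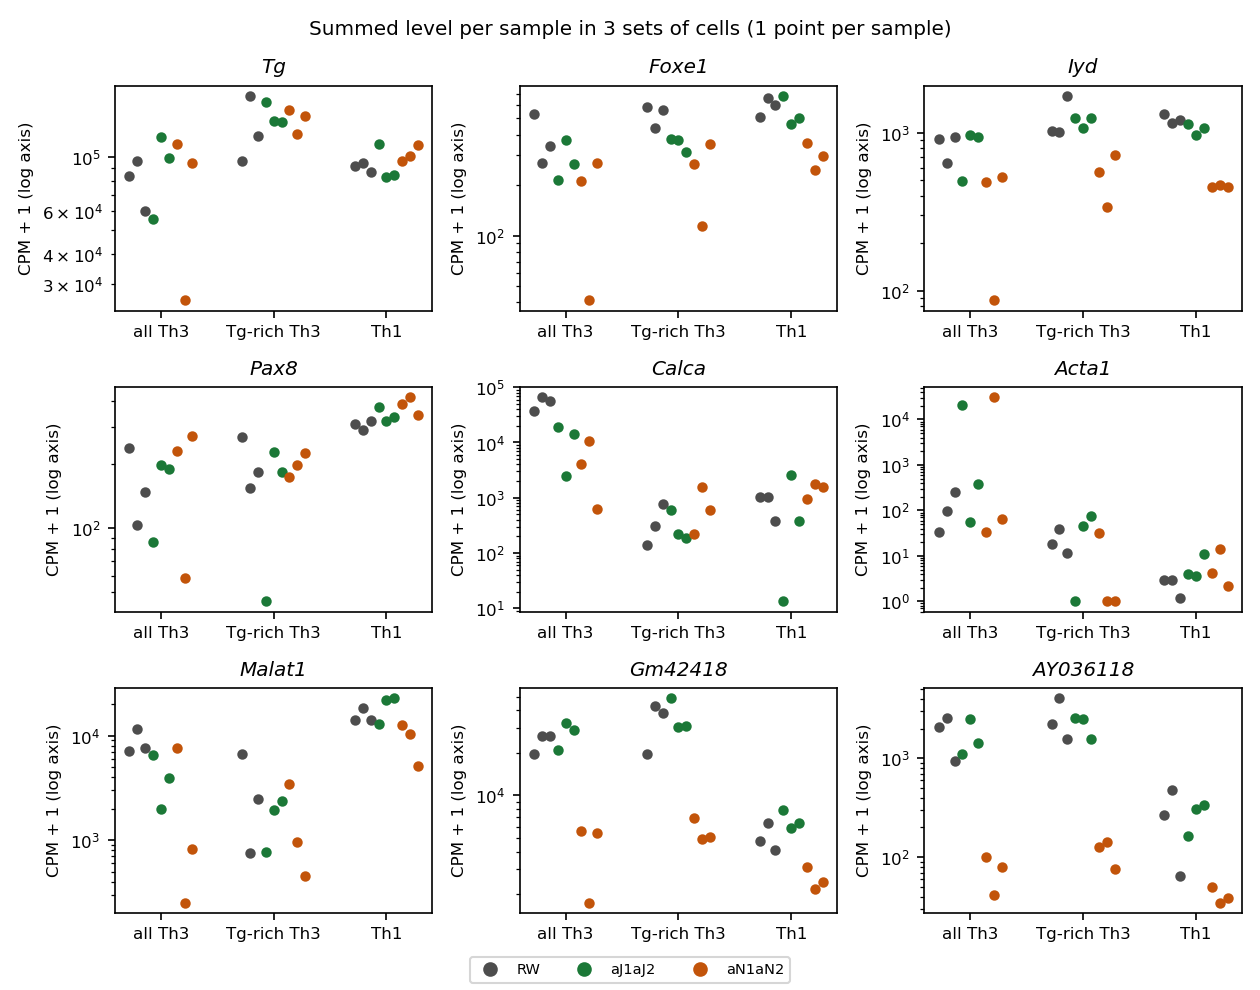
Levels of 9 genes (CPM + 1, log axis) in each sample, for all Th3 cells, Tg-rich Th3 cells and Th1 cells, with 1 point per sample coloured by antibody group. Calca and Acta1 spread widely in all Th3 cells and drop in Tg-rich cells, Malat1 is lower in Tg-rich cells than in Th1, and Gm42418 and AY036118 are higher.

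The authors also deposited 7 topic weights per cell, which sum to 1 and were made only for Th1, Th2 and Th3 cells. Topic 6 exceeded 0.5 in 25 Th3 cells, 23 of them C cell list cells, and topic 7 in 16, 15 of them muscle list cells. Topics 1 and 2 exceeded 0.5 in 304 and 124 cells. Topic 3 did so in 89 cells, all of them Tg-rich.

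Topics 1, 2 and 4 separated aN1aN2 from RW in Th3. The mean topic 1 weight was 0.515, 0.363 and 0.517 in RW, 0.328, 0.354 and 0.321 in aJ1aJ2 and 0.0799, 0.0716 and 0.105 in aN1aN2. Topic 2 was 0.112, 0.13 and 0.0838 in RW, 0.1, 0.194 and 0.17 in aJ1aJ2 and 0.534, 0.527 and 0.498 in aN1aN2. Neither topic overlapped between aN1aN2 and RW. The difference in means was -0.38 for topic 1 and 0.411 for topic 2, each with p = 0.1 in an exact two-sided permutation test of 3 against 3 samples, the smallest p it allows, and adjusted p = 0.35 over 14 topic tests. Topic 4 was 0.153, 0.211 and 0.149 in RW, 0.19, 0.219 and 0.218 in aJ1aJ2 and 0.0822, 0.0913 and 0.0704 in aN1aN2, lower in all 3 aN1aN2 samples than in the other 6 (exact p = 0.1, adjusted p = 0.35 against RW). Topic 1 was lower in every aJ1aJ2 sample than in every RW sample, with a difference of -0.131 (exact p = 0.1, adjusted p = 0.35). The same order within the series of RW 1, RW 2, aJ1aJ2 3 and aJ1aJ2 4 follows from this and is no further check. These 2 against 2 samples were not tested. None of these differences passed after adjustment. In Th1 the topic 1 weight was 0.524, 0.502 and 0.573 in RW, 0.463, 0.363 and 0.375 in aJ1aJ2 and 0.0701, 0.0563 and 0.074 in aN1aN2, and topic 2 in the aN1aN2 samples was 0.543, 0.519 and 0.51.

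**Figure D4:**
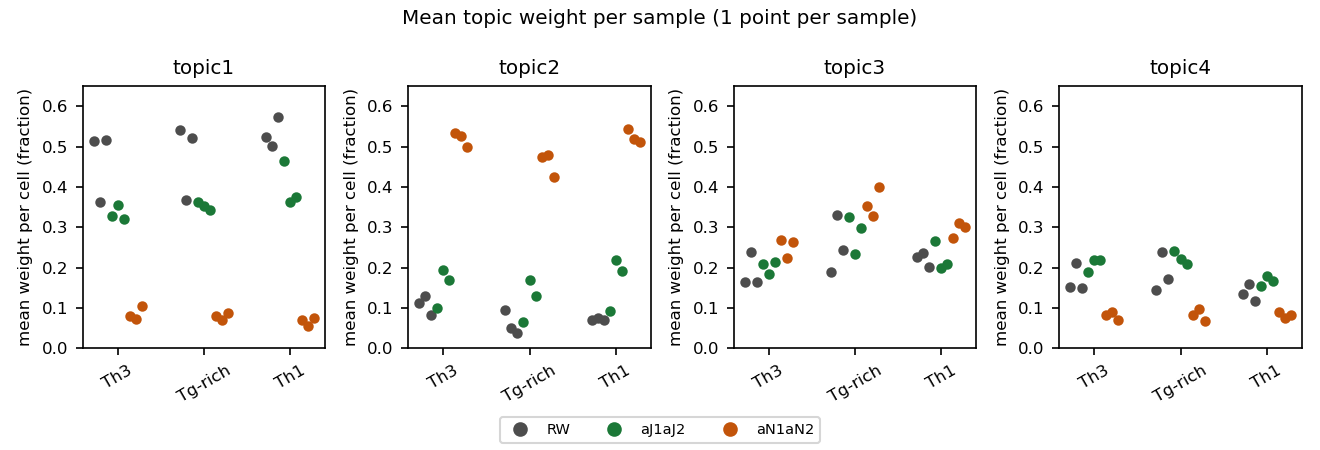
Mean weight of topics 1 to 4 in each sample for Th3, Tg-rich Th3 and Th1 cells; points are samples, coloured by antibody group, and weights run from 0 to 1. The 3 aN1aN2 samples sit at 0.0716 to 0.105 for topic 1 and 0.498 to 0.534 for topic 2 in Th3, apart from all other samples.

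The share of cells labelled Th3 was not shown to differ between groups. Of all cells, Th3 made up 15.5, 6.30 and 12.3% in RW, 10.8, 5.21 and 10.5 in aJ1aJ2 and 6.88, 6.78 and 6.26 in aN1aN2, overlapping for both blockades (exact p = 0.4 for aJ1aJ2 and 0.3 for aN1aN2, both adjusted p = 0.533 over 4 share tests, two-sided permutation). As a share of the cells labelled Th1, Th2 or Th3, it was 49.6, 46.9 and 42.6% in RW, 39.6, 30.5 and 54.8 in aJ1aJ2 and 29.3, 29.3 and 35.5 in aN1aN2. All 3 aN1aN2 samples lay under all RW samples, with a difference in means of -15.0 percentage points (exact p = 0.1, the smallest possible, adjusted p = 0.4). For aJ1aJ2 the difference was -4.70 points (exact p = 0.6). Median Th3 depth differed from RW by -70.5 UMIs in aJ1aJ2 and -132 in aN1aN2 (exact p = 0.9 and 0.8).

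The C cell list was higher in Th3 of RW than of either blockade group. Its summed level was 15.07, 16.22 and 15.62 in RW, 14.34, 11.50 and 13.89 in aJ1aJ2 and 12.21, 13.73 and 9.57 in aN1aN2 on the log2(CPM + 1) scale. Both blockade groups lay under RW without overlap, by differences of -2.39 for aJ1aJ2 and -3.80 for aN1aN2 (exact two-sided permutation p = 0.1 each, adjusted p = 0.3 over 6 list tests). Without the 27 cells over 5000 UMIs the groups overlapped and the differences were -0.59 and -0.41. In such a sum, fewer C cells and less Calca per cell cannot be told apart, and C cell list cells numbered 4, 3 and 7 in RW, 2, 2 and 8 in aJ1aJ2 and 2, 2 and 0 in aN1aN2. In the fit over all genes, Calca in aN1aN2 against RW had log2 change -3.10, SE 0.99, adjusted p = 0.102 and was not called. All 8 C cell list genes tested, of 16 listed, were uncalled (median log2 change -3.48), as were the 15 tested of 20 muscle list genes (median 6.56), against a median of 0.079 over all genes tested.

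Receptor blockade gave the clearest differences in Th3. Transcripts of ER chaperones, which fold secreted proteins such as Tg, fell, as did Scg5. Slc25a33, Tef and Tsc22d3 were among the genes that rose. Summed counts were tested with edgeR's quasi-likelihood test over all genes (Benjamini-Hochberg adjusted p under 0.05, called here). Of 2087 genes tested, 105 were called in aN1aN2 against RW (5.03%): 52 higher (2.49%) and 53 lower (2.54%). All 105 separated the 3 RW from the 3 aN1aN2 samples without overlap. The count depended on single samples: it was 13, 12 and 8 without RW 1, RW 2 and RW 3, and 97, 103 and 12 without aN1aN2 1, 2 and 3. Of the genes named below from all Th3 cells, Sdf2l1, Calr, Pdia6, Derl3, Scg5 and AY036118 were called whichever of these samples was left out. Slc25a33 lost its call without RW 3, and Manf without aN1aN2 3. Every other one lost its call in at least 1 omission. The count was 356 without cells over 5000 UMIs.

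Of 20 listed ER chaperone genes 17 were tested, 12 fell and none rose, with a median log2 change of -2.60. Of all genes tested 2.54% fell, and their median was 0.079. The list was chosen with earlier results of these data known. Sdf2l1, a cofactor of the chaperone BiP, was at 559, 607 and 549 normalised CPM in RW, 267, 319.5 and 288 in aJ1aJ2 and 39.8, 17.8 and 35.7 in aN1aN2. All 3 aN1aN2 samples lay far under the other 6 (log2 change -4.24, SE 0.36, adjusted p = 0.000256, aN1aN2 against RW). Calr, the lectin chaperone calreticulin, was at 2535, 3159.7 and 2325 normalised CPM in RW, 1599.8, 1459 and 1396 in aJ1aJ2 and 319, 231 and 375 in aN1aN2, again with aN1aN2 lowest (log2 change -3.12, SE 0.30, adjusted p = 0.000531). Hspa5, which encodes BiP, fell by 2.70 (adjusted p = 0.0123), and the disulfide isomerases Pdia6, Pdia4 and Pdia3 fell by 3.18, 3.07 and 2.95 on the log2 scale. Manf, Creld2, Hsp90b1, Dnajb11 and Canx had log2 changes of -2.56, -2.60, -2.82, -2.31 and -1.36, all called. Derl3, of the ER degradation machinery, had few UMIs in aN1aN2, and its RW to aN1aN2 ratio was 20.5 (95% counting interval 5.54 to 172). The listed members Herpud1 (-0.58), Dnajb9 (-0.64), Dnajc3 (-0.96) and Xbp1 (0.14), and Selenok (-0.72), were not called.

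Scg5, AY036118, 1500015O10Rik, Mia and Slc5a5 were among the other genes that fell. Scg5, which encodes a chaperone of prohormone convertase, was at 788, 751 and 832 normalised CPM in RW, 404, 426 and 504 in aJ1aJ2 and 79.7, 80.1 and 89.2 in aN1aN2 (log2 change -3.25, SE 0.28, adjusted p = 0.000256), with no overlap of aN1aN2 and the other 6 samples. C cell list cells held 179 of its 477 UMIs in RW, and its change was -2.58 without C cell and muscle list cells and -2.22 without cells over 5000 UMIs (adjusted p = 0.000225). The ribosomal RNA model AY036118 had log2 change -4.63, SE 0.55, adjusted p = 0.00226. 1500015O10Rik, the gene of augurin, was at 1844, 453 and 1709 normalised CPM in RW, 232, 660.4 and 614 in aJ1aJ2 and 39.8, 53.4 and 107 in aN1aN2 (log2 change -4.37, SE 0.67, adjusted p = 0.00925). Of its 929 UMIs in RW, 475 came from the Grp-rich cells of RW 1 and 191 from a single deep cell of RW 3, and aN1aN2 held 0 Grp-rich cells. It was still called without Grp-rich cells, and it was not called without RW 1 (adjusted p = 0.0545), RW 3 or aN1aN2 3. Without cells over 5000 UMIs its change was -3.62 (adjusted p = 0.000104). Mia was at 349, 90.5 and 666 normalised CPM in RW, 17.2, 0 and 14.4 in aJ1aJ2 and 13.3, 0 and 0 in aN1aN2, and its RW to aN1aN2 UMI ratio was 96.7 (95% counting interval 17.2 to 3836, adjusted p = 0.0156). Of the 238 Mia UMIs in RW, 115 came from the single cell of RW 3 and 107 from the Grp-rich cells of RW 1 described above. Without RW 1, without RW 3 or without cells over 5000 UMIs, Mia was too low to be tested. Slc5a5, the iodide importer, was at 209.9, 145 and 83.2 normalised CPM in RW, 51.6, 117 and 67.2 in aJ1aJ2 and 39.8, 8.90 and 0 in aN1aN2 (log2 change -3.11, SE 0.73, adjusted p = 0.0361). Its lowest RW sample lay above its highest aN1aN2 sample, and the aJ1aJ2 samples overlapped RW but not aN1aN2. It was not called without RW 1 (adjusted p = 0.158), RW 2, RW 3, aN1aN2 2 (adjusted p = 0.112) or aN1aN2 3. Resp18, a neuroendocrine secretory gene, was called with a log2 change of -3.53 (adjusted p = 0.0436), but 199 of its 203 UMIs in RW lay in C cell list cells, and without cells over 5000 UMIs its change was -0.52 (adjusted p = 0.826).

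Several genes with the highest rises sat in muscle list cells. Pdk4, the kinase that turns off pyruvate oxidation, had log2 change 5.51, SE 1.12, adjusted p = 0.0209, but 164 of 190 of its aN1aN2 UMIs came from muscle list cells. The same held for the translation repressor Eif4ebp1 (5.14, 277 of 303 UMIs), glutamine synthetase Glul (4.71, 270 of 356), the lipase Pnpla2 (3.20, 123 of 209) and the mitophagy gene Bnip3 (3.10, 169 of 239). After cells with at least 5% C cell or muscle list UMIs were left out, the changes were 3.42 for Pdk4 (adjusted p = 0.00355), 2.48 for Pnpla2 and 1.99 for Bnip3 (adjusted p = 0.00556), and these 3 genes and Glul were still called. Eif4ebp1 was then too low to be tested. With those cells out, the count of called genes was 300.

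Slc25a33, Tef and Tsc22d3 rose with a smaller part of their UMIs in muscle list cells. Slc25a33, a mitochondrial nucleotide carrier, was at 48.4, 9.05 and 33.3 normalised CPM in RW, 43.0, 42.6 and 43.2 in aJ1aJ2 and 452, 312 and 393 in aN1aN2 (log2 change 3.46, SE 0.42, adjusted p = 0.00226), with 7 of 91 aN1aN2 UMIs in muscle list cells. Every aN1aN2 sample lay above every other sample. Tef, a clock-controlled transcription factor, was at 6.46, 27.2 and 27.7 normalised CPM in RW, 86.0, 21.3 and 38.4 in aJ1aJ2 and 146, 187 and 143 in aN1aN2 (log2 change 3.12, SE 0.59, adjusted p = 0.018), and was the only one of 3 clock genes tested to be called. Muscle list cells held 13 of 40 aN1aN2 UMIs of Tef, and 13 of 21 in aN1aN2 2. Tsc22d3, a glucocorticoid-induced gene, was at 25.8, 136 and 38.8 normalised CPM in RW, 206, 42.6 and 76.8 in aJ1aJ2 and 518, 365 and 464 in aN1aN2 (log2 change 2.91, SE 0.64, adjusted p = 0.0278), with 28 of 106 aN1aN2 UMIs, and 28 of 41 in aN1aN2 2, from muscle list cells. After cells with at least 5% C cell or muscle list UMIs were left out, Tef had 3.02 (adjusted p = 0.00288) and Tsc22d3 2.88 (adjusted p = 0.00054). Of 5 glucocorticoid response genes tested, of 14 listed, 3 rose, Tsc22d3, Klf9 (1.75, adjusted p = 0.047) and Pdk4, whose UMIs lay mostly in muscle list cells. Of all genes tested 2.49% rose. The list median was 1.75, against 0.079 over all genes. In Tg-rich cells 1 of 3 rose, with a list median of -0.22. Of all genes tested in Tg-rich cells 14.6% rose, and their median was -0.068. Apod, an apolipoprotein gene, rose with a UMI ratio of 38.1 (95% counting interval 9.70 to 329).

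The same comparison in Tg-rich cells alone called more genes from fewer tested. Of 1121 genes, 300 were called (26.8%), 164 higher (14.6%) and 136 lower (12.1%), and leaving out any 1 sample gave 204 to 284. These share 81 genes with the 105 called in all Th3 cells, whose UMIs include theirs. ER chaperones fell in 13 of 17 tested (median -2.60, against -0.068 over all genes). Sdf2l1 had -3.77, Pdia6 -3.12, Calr -3.10 and Pdia4 -2.77 on the log2 scale. Slc35b1, an ER nucleotide transporter, had 53 UMIs in RW and none in aN1aN2, at least 5.27-fold lower with 3 counts taken as the floor of the whole group. The glutathione transferase Gsta3 had an RW to aN1aN2 UMI ratio of 11.2 (95% counting interval 3.74 to 55.3).

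Among the rises in Tg-rich cells, Txnip, a brake on glucose uptake that is induced by glucose, was at 254, 280.4 and 172 normalised CPM in RW, 304, 166 and 303 in aJ1aJ2 and 1837, 3049.6 and 2085 in aN1aN2 (log2 change 3.28, SE 0.28, adjusted p = 1.36e-06). Every aN1aN2 sample lay far above the other 6. The noncoding 2410006H16Rik, which overlaps Snord49a, Snord49b and Snord65 on the same strand, was at 76.9, 87.6 and 36.8 normalised CPM in RW, 30.4, 207 and 272 in aJ1aJ2 and 981, 1017 and 1400.4 in aN1aN2 (log2 change 4.00). Tsc22d3 (3.76), Slc25a33 (3.69), the deacetylase Hdac11 (3.88), the calcium-binding S100a5 (3.24), the host RNAs of small nucleolar RNAs Zfas1 (3.11) and Snhg3 (2.82), and the desmosomal p53 target Perp (2.88) were also among the 10 with the highest log2 changes among calls without overlap. Neat1 rose by 2.79, whereas in all Th3 cells its 1.89 was not called (adjusted p = 0.0771). Of 13 mitochondrial genome genes tested, 3 rose, mt-Atp6 (1.60), mt-Co2 (1.40) and mt-Co3 (1.65). Of all genes tested in Tg-rich cells 14.6% rose, and the list median was 0.63.

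Tg was not called in Th3 under receptor blockade, and neither were most thyrocyte genes tested. Its log2 change was -0.0065 in all Th3 cells (SE 0.47, adjusted p = 0.994) by edgeR. In Tg-rich cells, which Tg itself chose, the value is 0.18 and is no test. In all Th3 cells 2 of 13 thyrocyte genes tested fell, Slc5a5 and the kidney and thyroid cadherin Cdh16 (-1.82, adjusted p = 0.0267). Of all genes tested 2.54% fell, and the list median was -0.96, against 0.079 over all genes. Iyd (-1.16, adjusted p = 0.195), Dio1 (-1.54, adjusted p = 0.119), Pax8 (0.18) and Nkx2-1 (-0.15) were not called. In Tg-rich cells 5 of 12 fell: Slc5a5 (UMI ratio of RW to aN1aN2 8.84, 95% counting interval 2.93 to 43.7), Cdh16 (-1.48), Dio1 (-1.27), Iyd (-1.06) and Foxe1 (-0.96). Of all genes tested there 12.1% fell, and the list median was -0.60, against -0.068 over all genes.

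Notch pathway genes were at low levels in Th3. None of the 9 listed receptors and ligands had enough UMIs to be tested between groups. Mean levels over the samples were 13.7 CPM for Notch1, 50.9 for Notch2, 11.6 for Jag1 and 2.76 for Jag2 in Th3, and 43.4, 69.2, 25.2 and 10.2 CPM in Th1. Of 16 listed targets 2 were tested and neither was called. Hes1 had a log2 change of 0.90 in aN1aN2 against RW (adjusted p = 0.237). The antibodies act on proteins, so these RNA levels are no check of the blockade.

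Lists of other programmes were short, so that a count of 0 is near the 5.03% of all genes called in aN1aN2 against RW. The dissociation response, genes such as Fos and Hspa1a that tissue digestion induces, had 0 calls among 6 (median 0.48) tested. The erythroid list had 0 among 4 (median 1.15) and the mitochondrial genome 0 among 13 (median 0.32) in all Th3 cells. Among 10 junction and keratin genes tested, Cdh16 was the only call in all Th3 cells, and in Tg-rich cells Krt18 (0.79) and Cldn3 (0.68) rose while Krt8 (-1.34) and Cdh16 fell. These 2 of 10 in each direction compare with 14.6% of all genes higher and 12.1% lower in Tg-rich cells. Single calls from lists of other cells in all Th3 cells were Mia, of the cartilage list and given above, Cd74 (-2.21, adjusted p = 0.0198), of the macrophage list, and S100b (-3.02, adjusted p = 0.0264), of the Schwann cell list. In Tg-rich cells they were Cd74 (-2.47), S100b (-2.76) and, of the fibroblast list, the actin-severing Gsn, which rose (1.73). Of the defining genes, 2 of 9 macrophage and 1 of 6 Schwann cell genes (Csf1r, Mrc1 and Sox10) had no UMI in Th3. The summed macrophage list ran from 528 to 1185 CPM in RW, 192 to 739 in aJ1aJ2 and 103 to 132 in aN1aN2. The Schwann cell list ran from 254 to 285 CPM in RW, 163 to 793 in aJ1aJ2 and 40.2 to 121 in aN1aN2. Cd74 and S100b are members of these lists, so the sums are not separate from the calls. Cd74 made up most of the macrophage sum in every sample, with 385 UMIs in RW, 206 in aJ1aJ2 and 36 in aN1aN2. S100b had 128, 67 and 6 UMIs. The part of macrophages and Schwann cells in these calls was not tested.

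**Figure D5:**
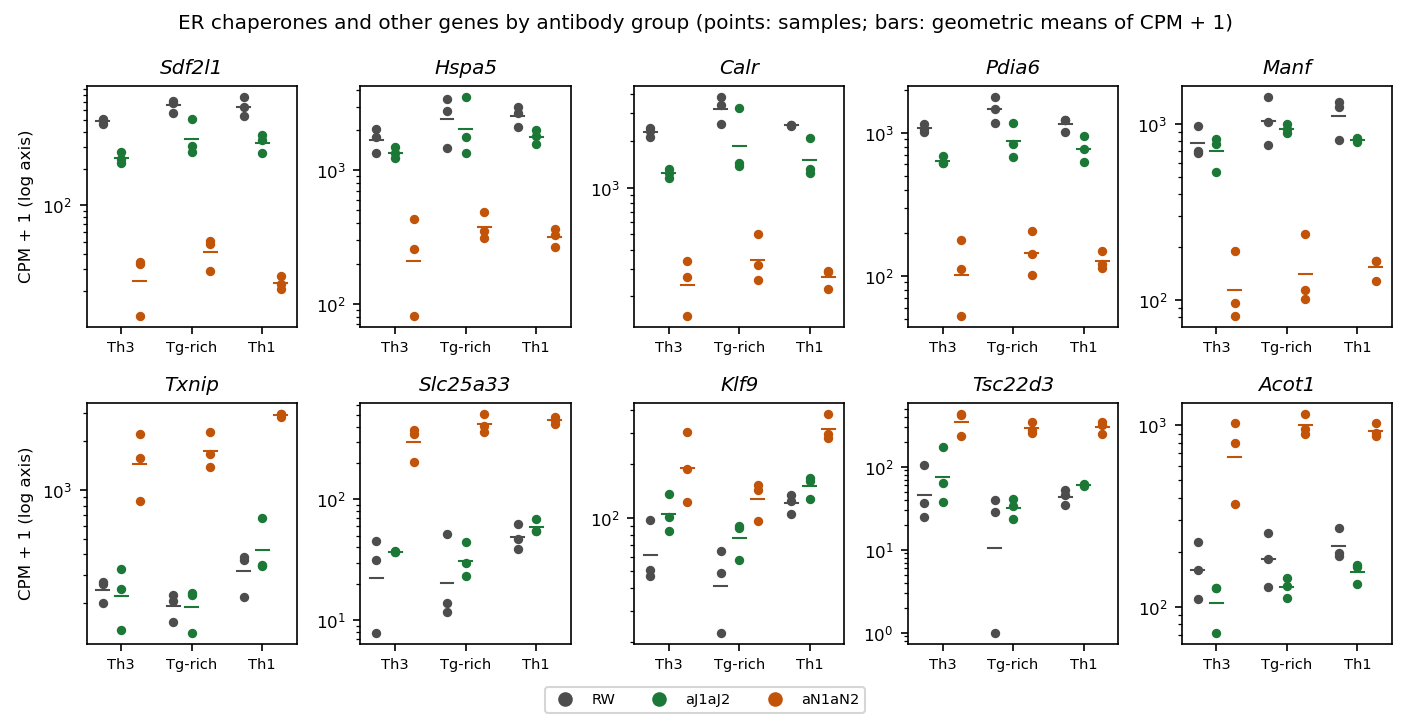
CPM + 1 (log axis) of 10 genes by antibody group in all Th3 cells, Tg-rich Th3 cells and Th1 cells; points are the 3 samples of a group and bars are geometric means. The aN1aN2 bar is the lowest for Sdf2l1, Hspa5, Calr, Pdia6 and Manf and the highest for Txnip, Slc25a33, Klf9, Tsc22d3 and Acot1 in each of the 3 sets of cells.

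Receptor blockade also differed from ligand blockade in Th3, with ER chaperones lower and Slc25a33 and Txnip higher in aN1aN2. Of 2087 genes tested in Th3, 30 were called in aN1aN2 against aJ1aJ2 (1.44%), 16 higher (0.767%) and 14 lower (0.671%). The count was 14, 3 and 3 without aJ1aJ2 1, 3 and 4, and 22, 29 and 0 without aN1aN2 1, 2 and 3. With aN1aN2 3 left out, 344 of 2674 genes had an unadjusted p under 0.05 in edgeR, and DESeq2 called 64 with all samples. ER chaperones fell in 6 of 17 tested (median -2.18, all genes 0.057), with Sdf2l1 at -3.27, Pdia6 at -2.48 and Manf at -2.47 on the log2 scale. The ribosomal RNA models AY036118 (-4.47) and Gm42418 (-2.67) and Lars2 (-2.41) fell too. The rises included Slc25a33 (3.13), the peroxisome-proliferator-responsive thioesterase Acot1 (2.76, adjusted p = 0.00697), Txnip (2.74), the GTPase Arl4d (2.60) and the mitochondrial acetyl-CoA synthetase Acss1 (2.39). Fitting only the 2 groups compared called 5 genes, Sdf2l1, Calr, Scg5, AY036118 and Slc25a33, so that Pdia6, Manf, Gm42418, Lars2, Acot1, Txnip, Arl4d and Acss1 were not called there, and DESeq2 gave no adjusted p for Arl4d and Acss1. Txnip in Tg-rich cells had 3.16, and there 137 of 1121 genes were called (12.2%), 75 higher (6.69%) and 62 lower (5.53%), with 81 to 132 when any 1 sample was left out. This comparison shares the aN1aN2 samples with the one above.

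Ligand blockade gave no call in Th3. By edgeR, 0 of 2087 genes passed in aJ1aJ2 against RW (0%), with 74 at an unadjusted p under 0.05, and DESeq2 called 1, Mia. With the internal series as a term, and within the series of RW 1, RW 2, aJ1aJ2 3 and aJ1aJ2 4, edgeR again called 0. In Tg-rich cells 0 of 1121 passed (0%), with 106 at an unadjusted p under 0.05 and 0 by DESeq2. The genes of lowest unadjusted p, none of them called, included the cold-inducible Rbm3 with a log2 change of 1.12, Mxi1 (1.76), the muscle genes Car3 (5.25) and Mb (5.61) and the globin Hbb-bt (4.28), and on the lower side Mia (-4.89, adjusted p = 0.335), Sdf2l1 (-0.97), Derl3 (-1.54), Scg5 (-0.83) and Wfdc2 (-1.28). Car3 and Mb lay mostly in the muscle list cells (258 of 440 and 309 of 320 aJ1aJ2 UMIs), and aJ1aJ2 4 held 643 of 652 aJ1aJ2 UMIs of Hbb-bt. ER chaperones had a median log2 change of -0.49, against 0.0019 over all genes, and 15 of 17 were negative, without a call. In Tg-rich cells Rbm3 had 1.42, adjusted p = 0.0904, and without C cell and muscle list cells it was the 1 gene called (1.29, adjusted p = 0.0485). These results do not show that the groups were alike.

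The effects in Th3 were then set beside those in Th1, the deeper thyrocyte label. Sdf2l1 had a log2 change of -4.24 in Th3 and -4.86 in Th1 for aN1aN2 against RW, Calr -3.12 and -3.24 and Slc25a33 3.46 and 3.28. A term for label by group, with the sample as a block, tested the difference of effect itself in edgeR. For all Th3 cells, 0 of 8175 genes differed in aN1aN2 against RW (542 at an unadjusted p under 0.05; only edgeR was run) and 1 in aJ1aJ2 against RW (0.0122%), Cbr2. For Tg-rich cells, 6 of 8019 differed in aN1aN2 against RW (0.0748%) and 5 in aJ1aJ2 against RW (0.0624%).

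Of the 6 genes that differed in aN1aN2 against RW, Gm42418 had the lowest adjusted p. Its aN1aN2 effect was lower in Tg-rich cells than in Th1 (difference of log2 changes -1.83, SE 0.26, adjusted p = 3.13e-08). Tg-rich levels were 19545, 42914 and 38349 CPM in RW, 48624, 30513 and 30833 in aJ1aJ2 and 6945, 4878 and 5091 in aN1aN2, and Th1 levels were 4717, 6345 and 4079 CPM in RW, 7819, 5876 and 6334 in aJ1aJ2 and 3085, 2173 and 2446 in aN1aN2. In Tg-rich cells all 3 aN1aN2 samples lay under the other 6, and in Th1 they did so too, over a narrower range. Mir6236 (-1.90, SE 0.33, adjusted p = 3.41e-05), AY036118 (-2.32, SE 0.41, adjusted p = 3.41e-05) and Lars2 (-1.57, SE 0.35, adjusted p = 0.0119) differed in the same direction. Receptor blockade and the internal series of the aN1aN2 samples cannot be told apart here either.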

How the data were processed

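The authors deposited 1 table of raw UMI counts for 10186 cells and 52636 genes, whole numbers with no normalization, and 1 annotation table with sample, cell label, mitochondrial percent of UMIs and 7 topic weights, each a fraction between 0 and 1 per the file headers. Cell Ranger and GRCm38 are named in the submitters' processing notes. Cell calling, labelling and the topic model are not given in the sources used here. The deposited table held no cell under 500 UMIs or over 25% mitochondrial UMIs. An unquoted comma in 2619 annotation lines was repaired. Ensembl identifiers were matched to GENCODE gene names for 52403 genes, and the 233 unmatched ones (0.0293% of UMIs) stayed in the tests. No doublet caller was run.

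Th3 members and all gene lists were chosen with earlier results of these data known. Counts were summed per sample over Th3, over Tg-rich Th3 and over Th1, and tested with edgeR 4.0.16 (R 4.3.3): filterByExpr, TMM, 1 quasi-likelihood fit of 3 group means to all 9 samples, Benjamini-Hochberg adjustment over all genes tested. CPM values are deposited counts scaled to their summed total, and normalised CPM uses the TMM-adjusted total. Log2 changes come from the fit of the deposited counts, and log2(CPM + 1) was used where stated. Named genes were, per comparison, the 10 called genes with the highest and the 10 with the lowest change among those without overlap between groups (5 of lowest p in each direction where none was called), called list members, and 15 per direction for Th3 against Th1. A few of these are not reported here. Label and group effects were tested with a term for their interaction and the sample as a block. Shares, depths, topic weights and list levels were compared over samples with exact two-sided permutation tests (scipy 1.17.1). DESeq2 1.42.0 was an alternative. Replicate numbers come from the titles, except for RW 3 and aJ1aJ2 1, whose titles give none.

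On simulated counts, the aN1aN2 against RW test recovered 3.41% of 2-fold and 52.8% of 4-fold changes among 1834 Th3 genes, and 42.7% and 95.2% among 937 Tg-rich genes.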

Additional observations from a re-analysis of the deposited data

Results flagged for a closer look

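The effect of a blockade differed between Th3 and Th1 in a few genes by edgeR's label by group term, given here as the log2 change in Th3 minus that in Th1. In Tg-rich cells under ligand blockade the globins Hbb-bt (3.61), Hbb-bs (2.15), Hba-a1 (2.35) and Hba-a2 (2.19) had a higher change than in Th1. A single Tg-rich cell of aJ1aJ2 4, with 15149 UMIs, held 3348 UMIs of Hbb-bs, and aJ1aJ2 4 held 640 of the 689 Hbb-bt UMIs of all Tg-rich cells. Without Th3 cells over 5000 UMIs the Hbb-bt difference was -0.023 (adjusted p = 1).

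Mia had a lower change under ligand blockade in Tg-rich cells than in Th1 (-3.66, adjusted p = 0.000313). Its Tg-rich UMIs were 108, 1 and 2 in RW and 2, 0 and 1 in aJ1aJ2, and its Th1 UMIs 495, 181 and 309 and 24, 405 and 173. Without RW 1 the difference was -0.67 (adjusted p = 1), and without Grp-rich cells of both labels it was 1.15 (adjusted p = 1). In all Th3 cells under ligand blockade the airway gene Cbr2 differed (-11.43): RW 3 held 242 of 250 Th3 UMIs, and aJ1aJ2 3 held 149 of 157 Th1 UMIs. With Cbr2 near 0 in the other samples, this fitted value depends on the prior count.

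Under receptor blockade the ribosomal RNA models Gm42418 (-1.83), Mir6236 (-1.90) and AY036118 (-2.32), and Lars2 (-1.57), had a lower change in Tg-rich cells than in Th1. The fatty acid receptor Cd36 differed by -11.23 (adjusted p = 0.00173), a fitted value that depends on the prior count, since Tg-rich cells of aN1aN2 held no Cd36 UMI. In RW they held 14, 1 and 2, while Th1 of aN1aN2 held 266, 66 and 18. Without Grp-rich cells of both labels its adjusted p was 0.219. The parathyroid gene Pth differed by -1.86 (adjusted p = 0.0324, and 0.0767 without Grp-rich cells).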

How the results depend on the processing

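Counts of called genes moved most. Leaving out 1 sample at a time gave 0 in each case for aJ1aJ2 against RW, 8 to 103 for aN1aN2 against RW and 0 to 29 for aN1aN2 against aJ1aJ2 in Th3. In Tg-rich cells the ranges were 0 to 10, 204 to 284 and 81 to 132. For the difference of effect between Th3 and Th1 they were 0 to 3 (aJ1aJ2) and 0 to 12 (aN1aN2) in all Th3 cells, and 0 to 6 and 2 to 9 in Tg-rich cells. For the 3 Th3 comparisons in that order, no filter on low counts gave 163, 421 and 125 calls. Omitting cells with at least 5% C cell or muscle list UMIs gave 1 (Rbm3), 300 and 188, and DESeq2 gave 1 (Mia), 155 and 64. For the 2 aN1aN2 comparisons, at least 50 Th3 cells per sample left 12 and 0 calls, equal cell numbers 40 and 9, omitting cells with 2 or more C cell or muscle list UMIs 282 and 173, omitting cells over 5000 UMIs 356 and 199, and Tg-rich cells 300 and 137. Fitting only the 2 groups gave 5 for aN1aN2 against aJ1aJ2. The difference of effect had 18 (aJ1aJ2) and 55 (aN1aN2) calls without the filter, 0 (aJ1aJ2) with Th1 thinned to Th3 totals, 5 and 6 in Tg-rich cells, and there 1 (aJ1aJ2) without Th3 cells over 5000 UMIs. The replicate block for RW 1, RW 2, aN1aN2 1 and aN1aN2 2 gave 53 calls against 0 in the same 4 samples without it; deviations of same-numbered samples correlated at 0.0499, and with 2 pairs the numbers were not taken to pair the samples. At least 50 Th3 cells per sample leaves out aN1aN2 3 alone and is the same fit as without it; 46 of 53 called results of named genes lost the call there. Without cells over 5000 UMIs Resp18 lost it. The cause of these moves was not tested.

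Of 202 alternatives for 26 sample measures, 187 kept the direction and 15 reversed. The aJ1aJ2 minus RW share of Th1, Th2 and Th3 was 0.876 points without aJ1aJ2 3 (range over single samples left out -11.3 to 0.876). Median depth differed by 119.8 (aJ1aJ2) and 58.2 UMIs (aN1aN2) without RW 1 (ranges -189 to 119.8 and -250.3 to 58.2). Topic 5 was 0.000305 and 0.00287, and topic 7 -0.00181 and -0.0013, without cells with 2 or more C cell or muscle list UMIs. Topic 6 was 0.00181 (aJ1aJ2) without RW 3 (range -0.0156 to 0.00181), and topics 6 and 7 were 0.000983 and -0.000875 (aN1aN2) in Tg-rich cells. The log2 thyrocyte list was -0.0538 and -0.0427 (aJ1aJ2) without RW 3 and aJ1aJ2 3, and 0.0545 and 0.347 (aN1aN2) without RW 2 and aN1aN2 2, with ranges of -0.0538 to 0.546 and -0.538 to 0.347. The muscle list was -0.78 (aN1aN2) without aN1aN2 2 (range -0.78 to 4.34), and the log2 change of Hbb-bt was -0.29 (aJ1aJ2) without aJ1aJ2 4 (range -0.29 to 4.88). Alternatives that define Tg-rich, Grp-rich or deep cells were chosen after seeing the data.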
